A study of Mus musculus with 6 samples.

Results

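Claudins are the membrane proteins that form the strands of tight junctions. This account covers 10 claudin genes in the mouse oviduct, Cldn1, Cldn3, Cldn4, Cldn5, Cldn6, Cldn7, Cldn8, Cldn10, Cldn11 and Cldn23, and all probe sets that the platform annotation pairs with 1 of them and with no other gene. These were 16 of 45037 probe sets. Cldn1 and Cldn3 had 4 probe sets each, and the other 8 genes had 1 each. Oviducts were taken at embryonic day 2.5 from MF1 females, an outbred stock, mated with wild-type males. RNA came from 3 heterozygous samples, labelled Wt1 ko/+, and 3 wild-type samples, labelled Wt1 +/+, with 1 array per sample. The heterozygotes keep 1 wild-type copy of Wt1, the gene of a zinc finger DNA-binding protein. The labels name no cell type restriction of the allele, no age and no pooling. Since nothing says that the samples came from separate animals, the p-values speak only for the spread among these 6 samples, part of which may be technical.

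A claudin crosses the membrane 4 times, and its extracellular loops meet those of a claudin on the neighbouring cell. Most claudins tighten the seal between cells, while a few line pores that let selected ions or water through, so the set of claudins a tissue makes helps to decide what leaks past its cells. Scaffold proteins such as ZO-1 tie the inner ends of the strands to actin. In the oviduct the junctions lie between the secretory and ciliated cells around the lumen, where the embryo travels in fluid made by that epithelium, and in the walls of its vessels.

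No claudin probe set passed the threshold for a difference between the genotypes (limma, 0 of 16 at a Benjamini-Hochberg adjusted p under 0.05, with the lowest adjusted p at 0.933). The background was low too, at 0.00666% of all probe sets. Cldn4 was the 1 member at an unadjusted p under 0.05, where the background is 5.18%, and all 3 heterozygous arrays lay below all 3 wild-type arrays. Of the 16 differences 8 were above 0 and 8 below, with a median of 0.02 on the log2 scale, beside -0.01 over all probe sets. Levels below are normalized log2 intensities, and differences are heterozygous minus wild type on that scale. A level is called bright or dim by whether its mean over the 6 arrays lay above or below 7.28, the median over all probe sets; 12 of the 16 were bright. Levels of different probe sets were not set against each other, since each probe set binds its target with its own strength.

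The 3 stretches of sequence below are those before Cldn4, whose genotypes did not overlap, before its neighbour Cldn3, and before Cldn1. Cldn4 and Cldn3 are neighbours on chromosome 5, with no protein-coding gene between them in the RefSeq table, and Cldn1 held the other probe set whose genotypes did not overlap. Each is the 250 bases before the annotated start, from RefSeq (GRCm38.p6), written 5′ to 3′ on the gene's strand. Capitals mark matches, on either strand, to a GC box (GGGCGG) or to an E-box of the type that Snail and Zeb repressors bind (CAGGTG); no match overlapped another.
Cldn4, chr5:134946935-134947184, minus strand: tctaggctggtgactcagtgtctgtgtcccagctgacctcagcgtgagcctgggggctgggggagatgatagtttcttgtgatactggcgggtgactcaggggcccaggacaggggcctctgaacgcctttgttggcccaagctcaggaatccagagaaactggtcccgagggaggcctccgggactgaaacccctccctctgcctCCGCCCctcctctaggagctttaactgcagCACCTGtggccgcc
Cldn3, chr5:134985964-134986213, plus strand: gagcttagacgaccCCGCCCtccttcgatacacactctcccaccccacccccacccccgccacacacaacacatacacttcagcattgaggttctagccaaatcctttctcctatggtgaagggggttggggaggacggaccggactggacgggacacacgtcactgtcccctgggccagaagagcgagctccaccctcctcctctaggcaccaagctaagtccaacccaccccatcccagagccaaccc
Cldn1, chr16:26371840-26372089, minus strand: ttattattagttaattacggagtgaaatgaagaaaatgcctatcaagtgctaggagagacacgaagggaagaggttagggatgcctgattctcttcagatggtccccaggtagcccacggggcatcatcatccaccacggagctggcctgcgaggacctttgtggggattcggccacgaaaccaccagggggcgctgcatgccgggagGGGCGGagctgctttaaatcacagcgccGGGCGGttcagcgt

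The Cldn4 window held 1 GC box and 1 such E-box, the Cldn3 window 1 GC box, and the Cldn1 window 2 GC boxes. Over the 10 windows used, which cover 8 of the 10 genes, 7 held a GC box and 3 the E-box, beside 32.7% and 17.2% of 32851 windows of the same length in all. Any window listed for these genes on a chromosome that holds none of them was left out, a filter not applied to the 32851. The table has no entry for Cldn8 and Cldn23. A TATA box (TATAAA) was in 0 of the 10, beside 12.4% of all windows. Letters known to be bound by WT1 (GCGGGGGCG, shared with EGR proteins, and GCGTGGGAG) were also in 0 of the 10, beside 2.57% and 0.405% of all windows. Base composition was not matched. The letters G and C made up 62%, 60.8% and 55.6% of the Cldn4, Cldn3 and Cldn1 windows. They made up 36% to 72.4% of the 10 windows, beside a median of 52.4% over all windows. A match is a run of letters and not a shown site, and a missing match says only that these letters are not in the window.

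Some facts of the whole series bear on these values. The Wt1 probe set read 11.12, 11.27 and 11.79 in heterozygous oviducts, against 12.17, 12.06 and 11.67 in wild-type oviducts, so that the genotypes overlapped. Whether it lies within the deleted stretch is unstated. That difference was -0.57 with a standard error of 0.24 (limma adjusted p = 0.933). RNA quality was uneven: Actb control probes nearer the 3′ end were brighter than those nearer the 5′ end by a ratio of 2.49, 1.67 and 1.71 in heterozygous replicates 1, 2 and 3, against 1.74, 2.40 and 5.90 in wild-type replicates 1, 2 and 3. This 3′/5′ ratio, averaged on the log2 scale with that of Gapdh, was higher in heterozygous replicate 1 and wild-type replicates 2 and 3 than in the other 3 arrays. Markers of the labelled tissue were present: all 8 secretory genes, Ovgp1 and Pax8 among them, and 12 of 13 ciliated cell genes were bright, beside 64.7% of all genes. Of 9 uterine epithelial genes 7 were bright too, so brightness does not set the oviduct apart from the uterus.

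**Figure D1:**
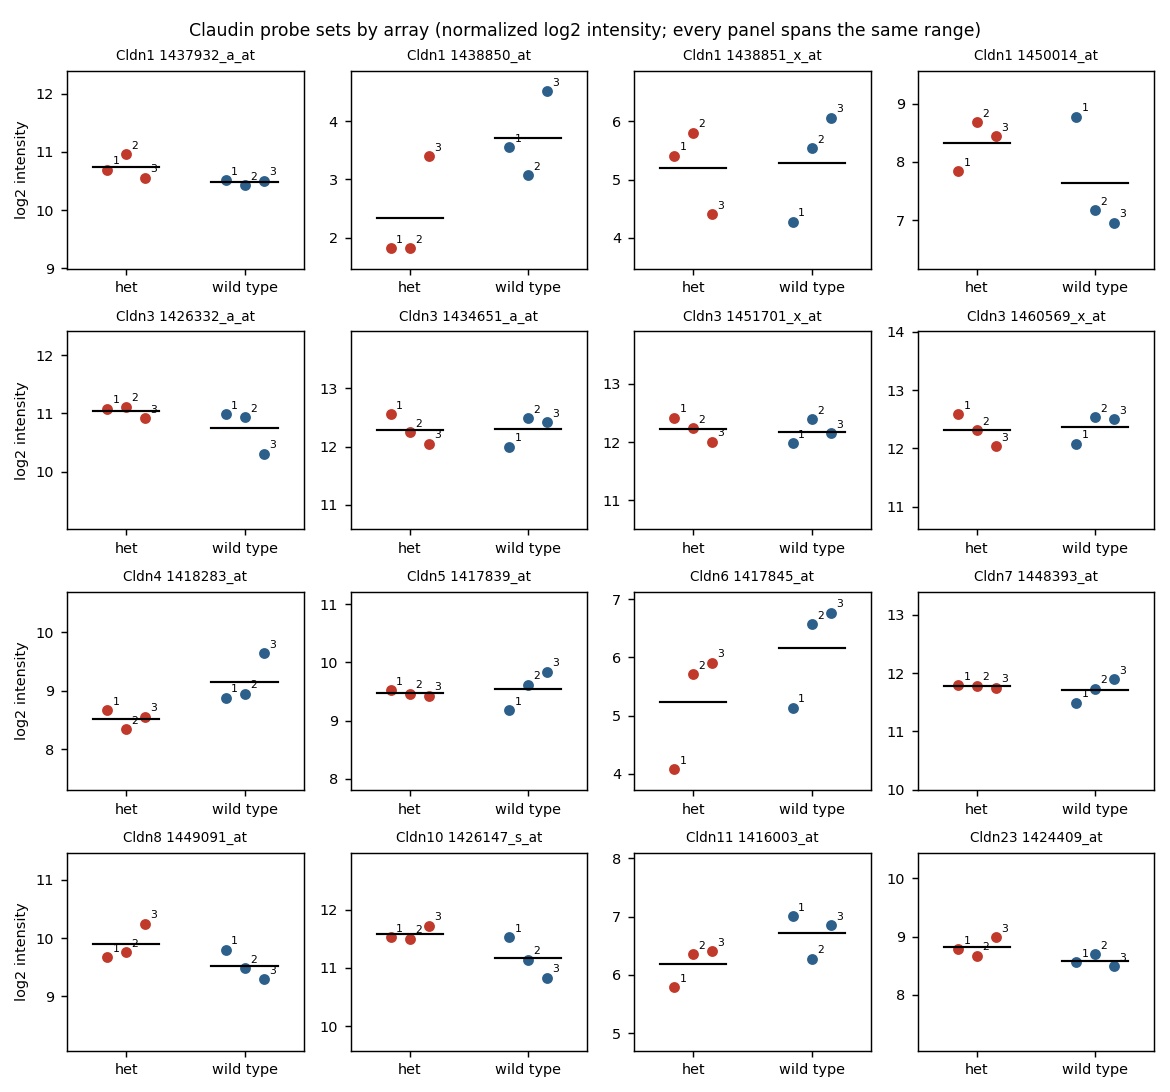
Normalized log2 intensity (vertical axis) of the 16 claudin probe sets, 1 panel each, in 3 heterozygous arrays (red, left) and 3 wild-type arrays (blue, right); digits are replicate numbers, black lines are group means, and all panels span the same range. The genotypes do not overlap for Cldn4 1418283_at, lower in heterozygous arrays, and for Cldn1 1437932_a_at, higher in them.

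Cldn4 is a barrier claudin of many epithelia and, with Cldn3, a receptor of the Clostridium perfringens enterotoxin. Its level was 8.67, 8.34 and 8.55 in heterozygous replicates 1, 2 and 3, against 8.88, 8.95 and 9.65 in wild-type replicates 1, 2 and 3. The 3 heterozygous values all lay below the 3 wild-type ones, and wild-type replicate 3, the array with the highest 3′/5′ ratio, stood apart from the other 2. The deposited intensities were 398.0, 333.5 and 384.4 in heterozygous oviducts, against 476.4, 493.2 and 787.2 in wild-type oviducts.

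Cldn4 means were 8.52 ± 0.16 in heterozygous and 9.16 ± 0.42 in wild-type oviducts (SD, n = 3 each), 1.55-fold lower in heterozygous oviducts. The log2 difference was -0.64, with a standard error of 0.25 and a 95% confidence interval from -1.25 to -0.02 (limma adjusted p = 0.933). The exact two-sided permutation test gave p = 0.1, the smallest that 3 arrays against 3 allow. Among all probe sets, 2.93% were lower and 2.25% higher at an unadjusted p under 0.05, and 5.87% were lower without overlap, so 1 of 16 is close to the background in both. Without wild-type replicate 3 the Cldn4 difference was -0.39, and with the 3′/5′ ratio as a covariate it was -0.38, neither at an unadjusted p under 0.05. Within the 3 arrays of lower ratio the Cldn4 difference was -0.43, and within the 3 of higher ratio -0.63. Since the genotypes did not overlap, the sign of both was fixed in advance and is no check on RNA quality.

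Cldn3 is a sealing claudin, and its genotypes overlapped at all 4 probe sets. Probe set 1434651_a_at read 12.56, 12.25 and 12.05 in heterozygous replicates 1, 2 and 3, against 12.00, 12.49 and 12.42 in wild-type replicates 1, 2 and 3. The 3 highest values came from the 3 arrays with the higher 3′/5′ ratio, which include both genotypes. Its difference was -0.02 with a standard error of 0.22 and a 95% confidence interval from -0.55 to 0.52. Probe sets 1451701_x_at and 1460569_x_at gave 0.05 and -0.06, also with overlap.

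The fourth Cldn3 probe set, 1426332_a_at, had another order of the arrays. It read 11.08, 11.11 and 10.92 in heterozygous oviducts, against 10.99, 10.93 and 10.30 in wild-type oviducts. Wild-type replicate 3 was the lowest of the 6 here, whereas it was among the 3 highest at 1434651_a_at and 1460569_x_at. The difference of 1426332_a_at was 0.29 with a standard error of 0.23 (limma adjusted p = 0.933), and 0.08 without wild-type replicate 3. The 4 probe sets of 1 gene thus did not order the arrays alike. Where each lies along the transcript, and whether all bind the same transcripts, is not stated.

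Cldn1, a sealing claudin best known from the skin barrier, had 2 bright and 2 dim probe sets. The one of highest mean, 1437932_a_at, read 10.70, 10.95 and 10.55 in heterozygous oviducts, against 10.52, 10.43 and 10.51 in wild-type oviducts. All 3 heterozygous values were above all 3 wild-type values, though heterozygous replicate 3 exceeded the nearest wild-type array by little. The means were 10.73 ± 0.20 and 10.49 ± 0.05 (SD, n = 3 each) in heterozygous and wild-type oviducts, a difference of 0.25 with a standard error of 0.16 (limma adjusted p = 0.933, exact permutation p = 0.1). Higher without overlap were 4.67% of all probe sets. Without heterozygous replicate 2 the difference was 0.14.

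The genotypes overlapped at the other 3 Cldn1 probe sets, which differed in sign. The bright 1450014_at read 7.84, 8.68 and 8.45 in heterozygous oviducts, against 8.77, 7.17 and 6.96 in wild-type oviducts. Its difference of 0.69 had a standard error of 0.53, with 0.35 when wild-type replicate 3 was left out and 1.26 when wild-type replicate 1 was. The dim 1438850_at gave -1.37 (standard error 0.57) at mean levels of 2.35 in heterozygous and 3.71 in wild-type oviducts, and the dim 1438851_x_at gave -0.09. With log2 of the intensity plus 16 the difference of 1438850_at was -0.46.

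Cldn7 lines the lateral membrane of many epithelia and binds EpCAM. Its level was 11.79, 11.78 and 11.75 in heterozygous oviducts, against 11.49, 11.73 and 11.89 in wild-type oviducts. The 3 heterozygous arrays lay within the range of the wild-type ones. The difference was 0.07, with a 95% confidence interval from -0.32 to 0.46.

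Cldn8 acts with Cldn4 in the kidney collecting duct, where the pair shapes chloride passage. It read 9.68, 9.76 and 10.25 in heterozygous oviducts, against 9.81, 9.49 and 9.29 in wild-type oviducts. Only heterozygous replicate 3 was above every wild-type array, and wild-type replicate 1 was above the other 2 heterozygous arrays. The Cldn8 difference was 0.36 with a standard error of 0.23 (limma adjusted p = 0.933), and 0.19 without heterozygous replicate 3. Cldn23, also linked to epithelial sealing, read 8.79, 8.67 and 8.99 in heterozygous oviducts, against 8.56, 8.70 and 8.49 in wild-type oviducts. Wild-type replicate 2 lay just above heterozygous replicate 2, and the difference was 0.23 with a standard error of 0.15.

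Cldn10 is the pore-forming member, made from alternative first exons as variants of different ion selectivity. The single probe set 1426147_s_at cannot tell the variants apart here. Cldn10 read 11.53, 11.50 and 11.72 in heterozygous oviducts, against 11.53, 11.14 and 10.83 in wild-type oviducts. Wild-type replicate 1 stood among the heterozygous arrays, while wild-type replicates 2 and 3, both of higher 3′/5′ ratio, were lower.

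The means of Cldn10 were 11.58 ± 0.12 in heterozygous and 11.17 ± 0.35 in wild-type oviducts (SD, n = 3 each), and the difference was 0.42 with a standard error of 0.22 (limma adjusted p = 0.933). Without wild-type replicate 3 the Cldn10 difference was 0.25, and with the ratio as a covariate 0.22. Within the arrays of lower and of higher ratio it was 0.09 and 0.54.

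Cldn5 is the main claudin of vascular endothelium. Its level was 9.52, 9.46 and 9.43 in heterozygous replicates 1, 2 and 3, against 9.18, 9.62 and 9.84 in wild-type replicates 1, 2 and 3. The heterozygous arrays lay inside the wild-type range, and the difference was -0.07 with a 95% confidence interval from -0.58 to 0.43. Over all 6 arrays the order of the Cldn5 levels was the same as the order of the 3′/5′ ratio, a match in the same or the reverse order that 1.85% of all probe sets showed and 1 of the 16 members.

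Cldn5 was not in the list of endothelial markers that stands beside it here. All 15 listed markers were higher in heterozygous means, with a median difference of 0.27, beside a median of -0.03 over all genes. They included the adhesion molecule Pecam1 at 0.83 (standard error 0.26, limma adjusted p = 0.670 over genes). Also among them were the junction protein Esam at 0.22 and the transcription factor Sox18 at 0.36. The genotypes did not overlap for these 3 of the 15, all higher. Over all genes 11.8% did not overlap in either direction, 6.77% being lower. None of the 15 passed the threshold. The summed deposited intensity of the list was 16155 to 17171 in heterozygous and 14233 to 15981 in wild-type arrays. Sox17, which is also in the secretory cell list, made up 53.7% to 62.2% of each sum, at a difference of 0.064. Without it the other 14 genes summed to 6767 to 7953 in heterozygous and 5433 to 6042 in wild-type arrays, also without overlap, with a median difference of 0.31. In whole-tissue RNA such a difference does not tell fewer cells of a type from less RNA per cell. No test of Cldn5 against these markers was made.

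Cldn6 is best known from embryonic epithelia. Its dim probe set read 4.08, 5.71 and 5.91 in heterozygous oviducts, against 5.14, 6.57 and 6.76 in wild-type oviducts. The genotypes overlapped, and replicate 1 was the lowest array in each. The Cldn6 difference was -0.92 with a standard error of 0.65, and -0.35 without heterozygous replicate 1. Within the arrays of lower and of higher ratio it was 0.67 and -2.58. All 10 measured markers of the preimplantation embryo, Pou5f1 and Nanog among them, were dim, and their summed intensity was 491.3 to 597.0 in heterozygous and 525.5 to 615.9 in wild-type arrays.

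Cldn11, known from myelin and from the Sertoli cells of the testis, also had a dim probe set. It read 5.79, 6.36 and 6.40 in heterozygous oviducts, against 7.01, 6.28 and 6.85 in wild-type oviducts. Wild-type replicate 2 lay below 2 heterozygous arrays. The Cldn11 difference was -0.53 with a standard error of 0.28 (limma adjusted p = 0.933), with -0.63 among the arrays of lower ratio and -0.78 among those of higher ratio. Without heterozygous replicate 1 it was -0.33, and with array weights -0.21. Of 8 measured Schwann cell and myelin genes 4 were higher and 4 lower, with a summed intensity of 9826 to 10753 in heterozygous and 9939 to 11356 in wild-type arrays.

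**Figure D2:**
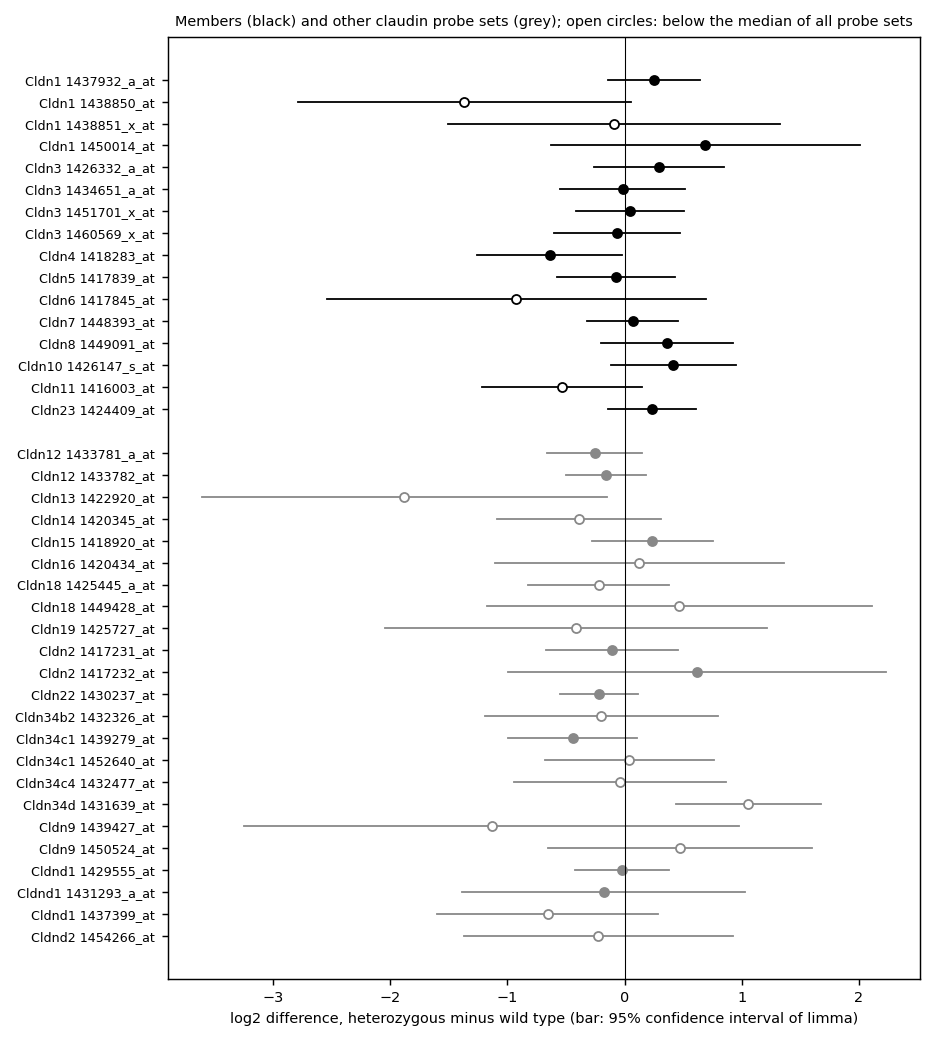
Log2 difference, heterozygous minus wild type (horizontal axis), of the 16 claudin probe sets described here (black) and of 23 probe sets of other claudin and claudin-domain genes (grey), with 95% confidence intervals of limma; open circles mark the dim ones. Among the 16, the interval of Cldn4 alone leaves out 0, ending at -0.02.

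The arrays were also compared by their 3′/5′ ratio. Between the 3 arrays of higher and the 3 of lower ratio, 5 of the 16 did not overlap, beside 21.0% of all probe sets (11.3% higher and 9.69% lower with the higher ratio), whereas between the genotypes 2 did not, beside 10.5%. Those higher in the arrays of higher ratio were Cldn5, by 0.30, and Cldn3 probe sets 1434651_a_at and 1460569_x_at, by 0.39 and 0.40. Those lower there were Cldn8, by -0.45, and Cldn1 1450014_at, by -1.31.

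The difference between ratio classes was larger than that between genotypes for 8 of the 16 members, beside 58.5% of all probe sets. Wild-type replicate 3 was the highest or lowest of the 6 arrays for 11 of the 16, beside 47.7% of all probe sets. The deposited intensities of 14 epithelial marker genes, all bright, were summed per array. The sum was 66209, 58743 and 57989 in heterozygous replicates 1, 2 and 3, against 53854, 63843 and 66092 in wild-type replicates 1, 2 and 3. Its 3 highest values came from the arrays of higher ratio. Single genes of the list differed: Krt8 was higher in all 3 of those arrays, and Cdh1 was not. Between genotypes 7 of these 14 genes were higher and 7 lower, with a median of -0.00. The part of RNA quality and of epithelial content in the claudin values was not tested.

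**Figure D3:**
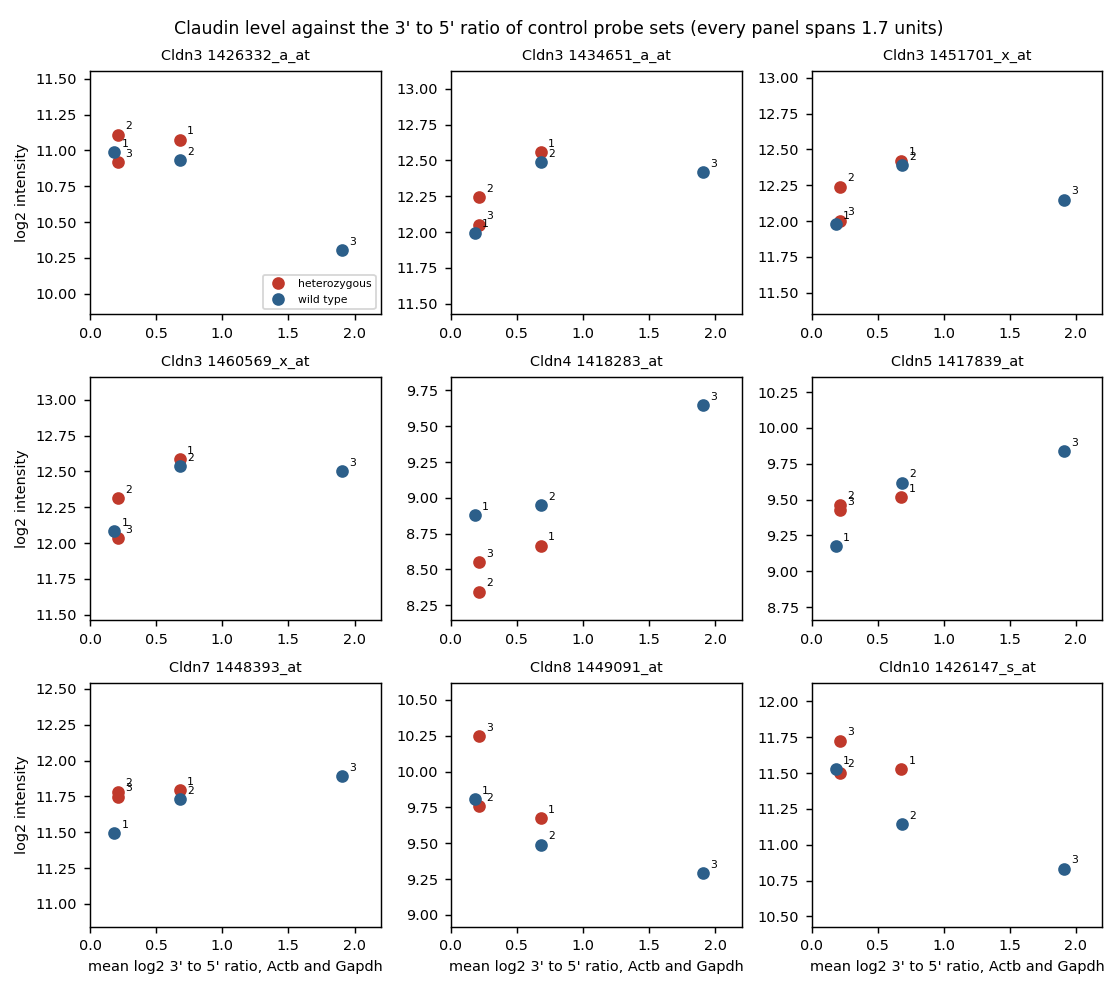
Normalized log2 intensity (vertical axis) of 9 bright claudin probe sets against the mean log2 3′/5′ ratio of the Actb and Gapdh controls (horizontal axis) in 3 heterozygous (red) and 3 wild-type (blue) arrays, with replicate numbers. Wild-type replicate 3, far to the right, is the highest array for Cldn4, Cldn5 and Cldn7 and the lowest for Cldn3 1426332_a_at, Cldn8 and Cldn10.

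Within the 2 classes of 3 arrays, the genotype difference had the same sign in both for 11 of the 16 probe sets and opposite signs for 5, beside 49.6% of all probe sets with the same sign. Each class holds 1 array of 1 genotype and 2 of the other, so these values have no test. For Cldn4 and Cldn1 1437932_a_at, whose genotypes did not overlap, the same sign in both classes was fixed in advance. The members of 1 sign were Cldn4 and Cldn11, lower in both, Cldn8, Cldn10 and Cldn23, higher in both, and 2 of the Cldn1 probe sets, 1437932_a_at higher and the dim 1438850_at lower. All 4 Cldn3 probe sets were also higher in both classes, by 0.03 to 0.46. Since Cldn3 and Cldn1 entered the 11 with several probe sets each, the 11 are not as many separate genes. Cldn5, Cldn6, Cldn7 and the other 2 Cldn1 probe sets had opposite signs.

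**Figure D4:**
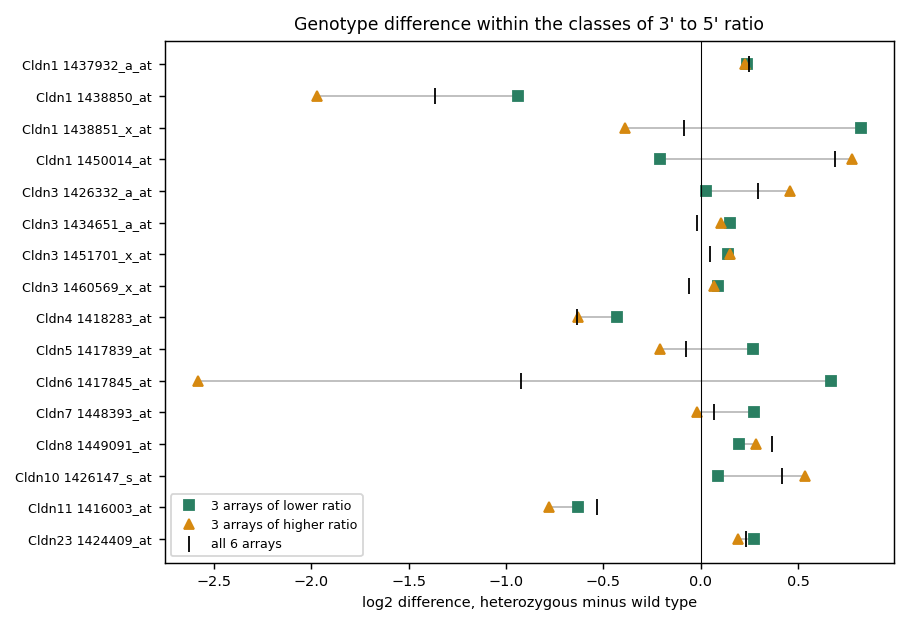
Log2 difference, heterozygous minus wild type (horizontal axis), of each claudin probe set within the 3 arrays of lower 3′/5′ ratio (green squares), within the 3 of higher ratio (orange triangles) and over all 6 arrays (black bars). The symbols lie on the same side of 0 for Cldn4, Cldn8, Cldn10, Cldn11 and Cldn23 and on opposite sides for Cldn5, Cldn6 and Cldn7.

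The rest of the family was read by 23 probe sets of 16 claudin and claudin-domain genes, of which 0 passed the threshold (limma, lowest adjusted p = 0.736). At an unadjusted p under 0.05 there were 2, beside 5.18% of all probe sets, both dim: Cldn13 at -1.88 and Cldn34d at 1.06. Of the 23, 7 were higher and 16 lower, with a median of -0.18, beside 51.7% lower among all probe sets. Without overlap 1 was higher and 4 were lower, beside 4.67% and 5.87% of all probe sets. Cldn13 lies on chromosome 5 as Cldn4 and Cldn3 do, and read 3.26, 2.88 and 5.51 in heterozygous oviducts, against 5.58, 5.78 and 5.93 in wild-type oviducts. Heterozygous replicate 3 was close to the wild-type arrays.

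Other members also have a claudin gene next to them. Cldn9, beside Cldn6, gave 0.47 and -1.13 at its 2 dim probe sets, and Cldn16, beside Cldn1, gave 0.13 at a dim one, all with overlap. Cldn2, a pore for cations and water, read 11.51, 10.98 and 10.75 at its brighter probe set in heterozygous oviducts, against 11.20, 11.30 and 11.07 in wild-type oviducts, a difference of -0.11 with overlap. Its other probe set gave 0.62 and was lower in all 3 arrays of higher 3′/5′ ratio. Cldn22 read 10.73, 10.81 and 10.92 in heterozygous oviducts, against 10.98, 11.11 and 11.01 in wild-type oviducts, lower without overlap by -0.22 (limma adjusted p = 0.933). Cldn12 gave -0.25 with overlap and -0.16 without it at its 2 probe sets, and the dim Cldn14 gave -0.39 with overlap.

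Genes that work with claudins were taken as 1 probe set per gene, the one with the highest mean over all arrays. Over 18193 genes 0.0165% passed the threshold, 6.44% had an unadjusted p under 0.05, 2.67% higher and 3.77% lower, and 11.8% did not overlap, 6.77% being lower. Of 12 transmembrane partners 0 passed, 8 were higher and 4 lower, with a median of 0.09, and 3 did not overlap. Occludin (Ocln) gave -0.11, and the junctional adhesion molecule F11r 0.09. Jam2, a relative of F11r, gave 0.09 with overlap, and 0.27, 0.30, 0.65 and 0.73 at its other 4 probe sets, of which those at 0.30 and 0.65 did not overlap (limma adjusted p = 0.933 for both over probe sets). Crb3, a polarity protein of the apical membrane, gave -0.30, with 0.02 and -0.02 at its other bright probe sets, all with overlap. Marveld3, a relative of occludin, gave 0.10, with -0.08 and, at a dim probe set, -0.27, these with overlap. Marveld3 at 0.10 and Esam were the partners higher without overlap.

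Ildr2, of the angulin family found where 3 cells meet, had the largest difference of these partners. It read 10.64, 9.89 and 10.95 in heterozygous oviducts, against 11.80, 11.66 and 11.04 in wild-type oviducts. The genotypes did not overlap, although heterozygous replicate 3 and wild-type replicate 3 were close. The Ildr2 difference was -1.01 with a standard error of 0.34 (limma adjusted p = 0.696 over genes). Its other 2 probe sets were also lower, a bright one by -1.08 without overlap (limma adjusted p = 0.511 over probe sets), and a dim one with overlap.

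Of 20 scaffold and polarity genes 0 passed, 11 were higher and 9 lower, with a median of 0.04, and of -0.077 with array weights and -0.074 without wild-type replicate 1. The ZO-1 gene Tjp1 gave 0.16 and its relative Tjp3 gave 0.04. Cingulin (Cgn), which links the junction to actin, gave -0.28, and its paralogue Cgnl1 gave 0.24. Pard6a, of the polarity complex, gave -0.33 (limma adjusted p = 0.748), and Ybx3, a nucleic acid-binding partner of ZO-1, -0.18. The genotypes did not overlap for 4 of these 20, Cgn, Pard6a and Ybx3 lower and Amotl1, an angiomotin relative, higher by 0.19. At its other bright probe set Ybx3 gave 0.09 with overlap, and Amotl1 gave 0.23 without overlap. The dim probe set of Cgn gave -0.68 with overlap.

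Of 11 adherens junction genes 0 passed, 5 were higher and 6 lower, with a median of -0.02, and of 0.16 when each gene's probe sets were averaged. E-cadherin (Cdh1) gave 0.04 at its 1 probe set. Beta-catenin (Ctnnb1) gave 0.08, and 0.67 and 1.00 at 2 other bright probe sets. Vinculin (Vcl), an actin linker, gave 0.096, and 1.10 at its other bright probe set. Afadin (Afdn), which ties nectins to actin, gave 0.15 and Nectin4 -0.10, all with overlap. Plakoglobin (Jup) gave -0.28 and did not overlap (limma adjusted p = 0.810).

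Among 14 genes listed for the handling or turnover of claudins 0 passed, 7 were higher and 7 lower, with a median of 0.00. Efnb1, an ephrin known to act on claudins, gave -0.39 without overlap (limma adjusted p = 0.742). Its other probe sets gave 0.01 and -0.20 with overlap. Kcnj10, a dim gene that encodes a potassium channel rather than a protein that handles claudins, gave -0.72 without overlap. Epcam, which binds Cldn7, gave 0.04 at its brightest probe set but -0.77 without overlap at its other bright one (limma adjusted p = 0.797 over probe sets), a value named after it was seen. The ephrin receptor gene Epha2 gave 0.28 and the protease inhibitor Spint2 -0.051, both with overlap. Myosin light chain kinase (Mylk), also abundant in smooth muscle, gave 0.26 without overlap. Of the 14 genes, 2 were thus lower without overlap and 1 higher, beside 11.8% of all genes in either direction. Efnb1 and Kcnj10 were the 2 at an unadjusted p under 0.05, beside 6.44% of all genes, 3.77% being lower. All 10 genes of the smooth muscle list were higher, with a median of 0.56. The genotypes did not overlap for 7 of them, beside 11.8% of all genes in either direction. These 7 included Cnn1 at 0.91 and Actg2 at 0.84. The summed intensity of the list was 46105 to 62597 in heterozygous and 40851 to 49201 in wild-type arrays, with overlap.

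Of 22 transcription factors linked to claudin genes 0 passed, 12 were higher and 10 lower, with a median of 0.01, and 4 had an unadjusted p under 0.05. Tfap2c, an AP-2 factor of epithelia, read 7.44, 7.09 and 6.77 in heterozygous oviducts, against 8.41, 8.41 and 8.72 in wild-type oviducts. The difference of Tfap2c was -1.41 with a standard error of 0.21 (limma adjusted p = 0.266 over genes). Its other probe sets, both dim, gave -0.97 and -0.63 without overlap (limma adjusted p = 0.507 and 0.853 over probe sets). Ovol2, which keeps epithelial identity, read 7.79, 7.85 and 7.56 in heterozygous oviducts, against 8.25, 8.30 and 8.46 in wild-type oviducts. Its difference was -0.60 with a standard error of 0.14 (limma adjusted p = 0.503).

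Zeb2, a repressor of epithelial genes, gave 0.72 (standard error 0.24, limma adjusted p = 0.691), and -0.06 to 2.39 at its other 4 probe sets. Sox18, also in the endothelial list, gave 0.36. The genotypes did not overlap for these 4 factors, Tfap2c and Ovol2 lower and Zeb2 and Sox18 higher. Ehf, an epithelial factor, gave 0.00, and Foxo1 gave -0.065.

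**Figure D5:**
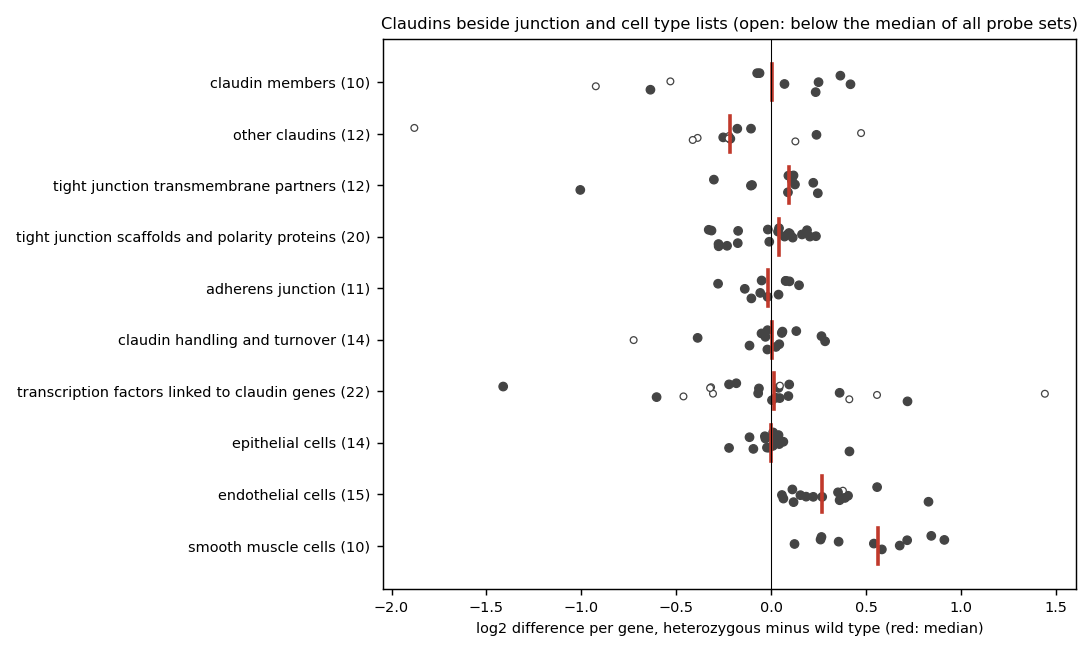
Log2 difference per gene, heterozygous minus wild type (horizontal axis), for the 10 claudins, 6 lists of related genes and 3 cell type lists, with the number of genes in brackets; red lines are medians and open circles are dim genes. The claudin median is 0.00, the epithelial one -0.00, and all endothelial and smooth muscle genes lie above 0, with medians of 0.27 and 0.56.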

How the data were processed

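Per the labels, biotin-labelled cRNA was hybridised to 1-colour arrays, and the deposited table holds linear intensities of 45101 probe sets. The sources used here do not give the summarising program. The mean intensity without the outer 2% at each end was 500.002 on every array, so the values had been scaled; depth has no counterpart here, and 6 arrays limit the precision. The 64 control probe sets were left out. Intensities were floored at 1, log2 transformed and quantile normalized, since array medians differed by 0.147. Genotypes, from the sample titles, were compared with limma 3.58.1 in R 4.3.3 (lmFit, eBayes, two-sided, Benjamini-Hochberg over all probe sets or all genes, threshold 0.05), and single values by an exact permutation test. Errors are moderated standard errors or SDs over 3 arrays. Scripts were tested on simulated data. Members, lists and motifs were chosen with earlier results of these data known. The naming rule took all member probe sets, Wt1, and per junction list up to 4 genes of smallest p and the 2 of highest mean, and marker genes of highest mean or without overlap, of which only those needed beside a claudin result are printed; others, such as Ocln and Tjp3, were added with their values seen.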

Additional observations from a re-analysis of the deposited data

How the results depend on the processing

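No claudin probe set and no claudin or junction gene passed the adjusted threshold under any alternative tried. These were the deposited scaling, the filter on dim probe sets, log2 of the intensity plus 16, trend and robust, array weights, the replicate block, the 3′/5′ ratio as covariate or as classes (the classes were chosen after seeing the data), leaving out each array, and 2 other rules for the probe set of a gene. The Cldn4 difference ranged from -0.78 to -0.38 (adjusted p = 0.353 to 1.00), and Cldn8, Cldn10, Cldn11, Cldn23, Cldn6, Cldn1 1437932_a_at, 1438850_at and 1450014_at and Cldn3 1426332_a_at kept their sign throughout.

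Members at an unadjusted p under 0.05 numbered 1 as reported, 2 with trend and robust, 3 with array weights and 0 with the ratio covariate. With the replicate number as a block they numbered 2, and the block left 0 of all probe sets and 0 of all genes past the threshold, so it changed no call of a claudin. Samples of the same number share only that number (correlations of their deviations from the group means -0.42, 0.07 and -0.25). Without 1 array at a time they numbered 0 (without heterozygous replicate 1 or 2 or wild-type replicate 3) to 3 (without wild-type replicate 1), and members without overlap 2 to 7, the 7 without wild-type replicate 1, where 30.6% of all probe sets did not overlap (16.8% to 21.0% without any other array). The median over members was 0.15 with the dim filter, which drops 4 of them. Junction and claudin genes at an unadjusted p under 0.05 numbered 10 as reported, 17 with array weights, 6 with the ratio covariate and 3 to 11 without 1 array. The lists held 10 member claudins, 12 other claudins and 12, 20, 11, 14 and 22 related genes. Of all genes 6.44% had such a p as reported. That share is not given here for the other settings, where the counts over all probe sets, printed below, also moved. Over all probe sets 3 passed as reported, 1 with log2 of the intensity plus 16, 14 with array weights, 0 with the covariate or the classes and 0 to 1 without 1 array. Over genes 3 passed as reported, 1 with the dim filter, 1 with trend and robust, 7 with array weights, and 0 with the covariate, the classes, any array left out or without cross-hybridizing probe sets. At an unadjusted p under 0.05 there were 2334 probe sets, 1407 with the dim filter and 5893 with array weights, and 1810 to 4285 without 1 array, the 4285 without wild-type replicate 1.

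Signs near 0 turned. With the ratio covariate and with the classes the differences were 0.41 and 0.22 for Cldn1 1438851_x_at, 0.12 and 0.13 for Cldn3 1434651_a_at, 0.077 and 0.080 for Cldn3 1460569_x_at, and 0.11 and 0.030 for Cldn5. With array weights Cldn3 1451701_x_at gave -0.090. Without 1 array they ranged from -0.59 to 0.31, -0.17 to 0.10, -0.21 to 0.077 and -0.26 to 0.073 for these 4 in turn, from -0.052 to 0.16 for Cldn3 1451701_x_at and from -0.037 to 0.16 for Cldn7. Averaged over their probe sets, Cldn1 gave -0.13 and Cldn3 0.066. The cause was not tested. No detection calls were used, so whether the 4 dim claudin probe sets lay above background is unknown.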
